A study of Homo sapiens with 4 samples.

Results

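The clade B serpins are a family of protease inhibitors, and 10 of their genes were followed through RNA-seq libraries labelled as the human breast cancer line MDA-MB-453. The 10 genes are SERPINB1, SERPINB6 and SERPINB9 on chromosome 6 and SERPINB2, SERPINB3, SERPINB4, SERPINB5, SERPINB7, SERPINB8 and SERPINB13 on chromosome 18, out of 48162 genes in the deposited table. They were chosen by symbol with their wild-type and knockdown values already known, so the difference between these groups is given for them as a description, with no test. The study compared 2 libraries of wild-type (WT) cells with 2 libraries of cells labelled as a knockdown (KD) of TMEM9, which encodes a transmembrane protein of late endosomes and lysosomes. The sources used here do not say how TMEM9 was reduced, whether the KD cells were 1 clone or a pool, or whether the libraries stand for separate cultures, so p-values rest on a spread that may be technical.

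Serpins trap proteases. An exposed stretch near the end of the protein, the reactive centre loop, is offered to the protease as bait, and once cut it folds into the body of the serpin and drags the protease into a distorted, inactive complex. Clade B members mostly lack a classical secretion signal and work inside the cell or after release from it, against proteases of lysosomes, neutrophil granules and cytotoxic granules and against urokinase. In epithelia such as epidermis and mammary gland several are markers of the differentiated or basal state, and SERPINB5, maspin, is known from mammary epithelium as a gene that many breast cancers lose.

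TMEM9 itself had 1120 and 1497 counts in WT and 51 and 78 in KD, which is 79.1 ± 5.92 against 3.79 ± 0.957 CPM (counts scaled to the size of the library; SD, n = 2). Library totals ran from 15323843 to 18517337 counts. Counts of mitochondrial genes made up 3.98% of both WT libraries and 2.83% to 3.18% of the KD libraries. Of the markers of the labelled line, KRT7 was the most abundant at 427 CPM in WT and 604 in KD. PIP had no count in any library, and EPCAM, KRT19, SPDEF, TFF3 and AGR2 had at most 9 counts in any. Part of the labelled line's markers are therefore absent or nearly so. Of the fibroblast markers given at the end, some were abundant and some near 0. The identity of the cells is in doubt and was not tested. The difference between WT and KD was broad. Of 14923 genes that passed the filter on low counts, 57.7% were called by edgeR's quasi-likelihood test at an adjusted p below 0.05, 28.7% as higher and 29.0% as lower in KD (4283 and 4335 genes; 5030 and 3730 with library size as the only scaling).

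Of the 10 clade B serpins, 6 passed that filter; 5 of them were called lower and 1 higher in KD, and nothing is read from this count because the contrast was known when the genes were chosen. SERPINB3 and SERPINB4 passed the filter only through the WT libraries. The CPM of the 2 groups did not overlap for 9 of the 10 genes, against 77.6% of the genes that passed the filter; 3 of the 9 (SERPINB2, SERPINB7 and SERPINB9) did not pass it, so the shares have unlike bases. The genes of chromosome 6 differed by less than 2-fold where they were well counted, whereas chromosome 18 held both near-complete losses and a gene that was higher in KD.

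**Figure D1:**
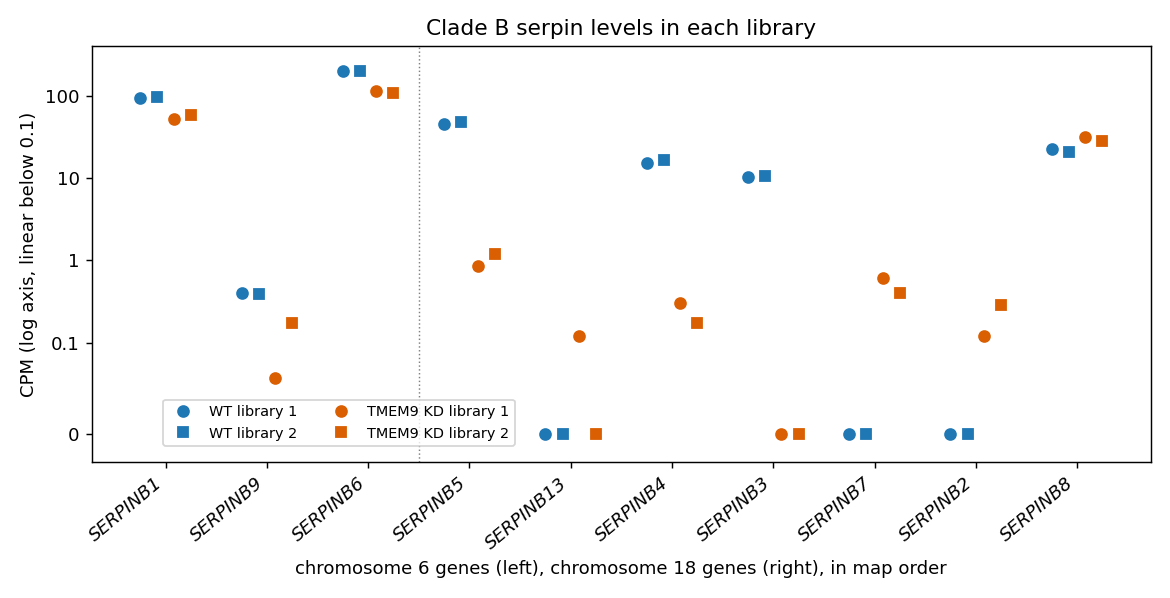
CPM of the 10 clade B serpins in each library (circles, library 1; squares, library 2; blue, WT; orange, KD), on a log axis that is linear below 0.1. SERPINB5, SERPINB4 and SERPINB3 lie above 10 CPM in WT and far lower in KD. Their KD values are 0.855 and 1.20 CPM for SERPINB5, 0.305 and 0.172 for SERPINB4 and 0 for SERPINB3. SERPINB8 lies higher in KD, and SERPINB7, SERPINB2 and SERPINB13 have counts in KD only.

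On chromosome 6, SERPINB6 had the highest CPM of the clade B serpins. Its product inhibits cathepsin G and trypsin-like proteases and is known for its part in the survival of inner ear hair cells. SERPINB6 had 2955 and 3583 counts in WT and 1849 and 1857 in KD, or 198 and 199 CPM against 113 and 106. Both KD libraries lay well below both WT libraries, a 1.81-fold lower level (log2 difference -0.86, SE 0.0647). SERPINB1, whose product inhibits neutrophil elastase, cathepsin G and proteinase 3, had 1414 and 1747 counts in WT and 844 and 1020 in KD. This was 94.6 and 97.2 CPM against 51.6 and 58.4, a 1.74-fold lower level (log2 difference -0.80, SE 0.0770). The pair therefore showed log2 differences that lay closer to each other than their standard errors.

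SERPINB9, the inhibitor of granzyme B that protects cytotoxic lymphocytes and some target cells, lay between these genes in map order and was barely counted. It had 6 and 7 counts in WT and 1 and 3 in KD. The ratio of WT to KD was 3.34, with an exact (Clopper-Pearson) 95% interval from 1.03 to 14.1 that covers counting error only. Granzyme B itself (GZMB) had 4 and 3 counts in WT and none in KD, so neither the inhibitor nor its protease was expressed at a level that these libraries measure well.

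In both groups the chromosome 6 genes kept nearly the same proportions. SERPINB6 took 67.5% and 67.1% of the summed CPM of the 3 genes in WT and 68.6% and 64.5% in KD, and SERPINB1 took 32.3% and 32.7% in WT and 31.3% and 35.4% in KD. The sum went from 292.6 and 296.9 CPM in WT to 164.5 and 165.0 in KD.

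On chromosome 18, SERPINB5 stands first in map order. It had 681 and 863 counts in WT and 14 and 21 in KD, or 45.5 and 48.0 CPM against 0.855 and 1.20. The KD libraries held a small remainder of the WT level, 44.9-fold lower (log2 difference -5.49, SE 0.176). Maspin differs from most of its family in that its loop does not make the inhibitory shape change, and it is studied for effects on cell adhesion and motility rather than as a protease trap.

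SERPINB4 and SERPINB3 encode the squamous cell carcinoma antigens, and arose by duplication. SERPINB4, whose product inhibits the chymotrypsin-like enzymes cathepsin G and chymase, had 230 and 295 counts in WT and 5 and 3 in KD, or 15.4 and 16.4 CPM against 0.305 and 0.172. The ratio of WT to KD was 67.4, with a 95% interval of counting error from 34.0 to 157. SERPINB3, whose product inhibits the cysteine cathepsins L, K and S, had 152 and 188 counts in WT and none in either KD library. With the KD group set to a floor of 3 counts in all, SERPINB3 was at least 116-fold lower than its 10.2 and 10.5 CPM in WT. SERPINB3 made up 39.8% and 38.9% of the CPM of this pair in WT and 0% in both KD libraries, where the pair had only 8 counts in all, too few to show whether the split between them moved.

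The copies are alike enough that reads can be assigned to the wrong one. Of the 50-base windows of the main SERPINB3 transcript, 23.9% (413 of 1728) also occur in SERPINB4, and 24.3% (413 of 1700) of those of SERPINB4 occur in SERPINB3. With the counting tool not given in the sources used here, the division between them is uncertain, while summing the copies as 1 gene gave a log2 difference of -6.75. Their coding sequences of 1170 bases are 95.2% identical, and the encoded proteins of 390 residues are 91.8% identical. The differences are denser in the bait. The stretch of 99 coding bases that ends with the His-Pro-Phe codons after the loop is 88.9% identical in bases and 75.8% in residues, against 95.6% of the bases before it. These 99 bases are shown because they hold the part of each protein that meets the protease; they lie in exon 8 of 8 in both genes, on the minus strand of GRCh38 at chr18:63655723-63655821 for SERPINB3 and at chr18:63637785-63637883 for SERPINB4 (GENCODE 29). Capitals mark the 11 bases, in 9 codons, that differ between the copies, read 5′ to 3′ along the coding strand.
SERPINB3: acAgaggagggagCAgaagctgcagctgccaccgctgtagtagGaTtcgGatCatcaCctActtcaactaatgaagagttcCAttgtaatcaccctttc
SERPINB4: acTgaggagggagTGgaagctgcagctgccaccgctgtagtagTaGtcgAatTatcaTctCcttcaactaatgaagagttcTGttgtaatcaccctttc

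The remaining chromosome 18 members were at or near 0 in WT, apart from SERPINB8. SERPINB7, or megsin, known from kidney mesangium and upper epidermis, had no count in WT and 10 and 7 counts in KD, at least 5.52-fold higher if the WT group is set to its floor of 3 counts. SERPINB2, or PAI-2, an inhibitor of urokinase that inflammatory signals induce in monocytes and keratinocytes, had no count in WT and 2 and 5 in KD, at least 2.27-fold higher by the same floor. Both KD libraries had counts and neither WT library had any, but at this depth these are a handful of reads per library. SERPINB2 shares 23.7% of its 50-base windows with annotated transcripts of its neighbour SERPINB10, which had no count in any library. SERPINB13, an inhibitor of cathepsins L and K in squamous epithelium, had 2 counts in 1 KD library and none elsewhere, too few for a fold.

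SERPINB8, which inhibits the proprotein convertase furin, stands last in map order and was the one well-counted member that was higher in KD. It had 335 and 370 counts in WT and 507 and 487 in KD, or 22.4 and 20.6 CPM against 31.0 and 27.9. Both KD libraries lay above both WT libraries, a 1.37-fold higher level (log2 difference 0.46, SE 0.110). Of its 50-base windows, 9.42% also occur in transcripts of HMSD. The clade B genes outside the 10 had almost no counts: SERPINB10 and SERPINB11 had no count, and SERPINB12 had 1 count in 1 KD library.

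The make-up of the chromosome 18 cluster was therefore turned around. SERPINB5 took 48.7% and 50.3% of the summed CPM of the 7 genes in WT and 2.59% and 4.02% in KD, and SERPINB4 took 16.5% and 17.2% in WT and 0.926% and 0.574% in KD, and SERPINB3 10.9% and 11.0% in WT and 0% in KD. SERPINB8 went from 24.0% and 21.6% to 93.9% and 93.1%. The sum over the 7 genes went from 93.50 and 95.46 CPM in WT to 32.98 and 29.96 in KD, and what remained was almost all SERPINB8. In these bulk libraries, fewer cells that express a gene and less RNA per cell cannot be told apart.

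**Figure D2:**
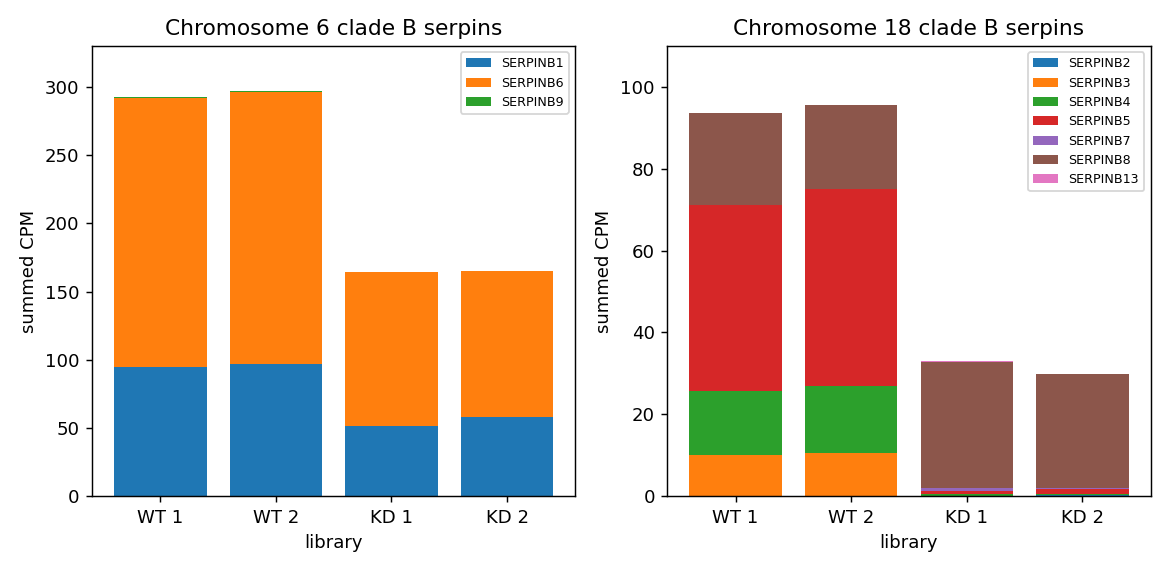
Summed CPM of the clade B serpins of chromosome 6 (left) and chromosome 18 (right) in each library, stacked by gene. On chromosome 6 the bar is lower in KD with similar proportions; on chromosome 18 SERPINB3, SERPINB4 and SERPINB5 nearly vanish from the KD bars and SERPINB8 takes 93.1% and 93.9% of them.

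Levels of different genes were compared per length, as CPM per kb of the main transcripts, with the median length where a gene had several. For SERPINB6 this was 1494 bases over 9 transcripts, against 2619 bases for SERPINB1. The SERPINB6 transcript searched for shared windows was far longer, with 5571 windows of 50 bases. At that length SERPINB6 would not stand above SERPINB1 in either group, so its first place depends on the length chosen. In WT the order was SERPINB6 (133 CPM per kb), SERPINB1 (36.6), SERPINB5 (16.8), SERPINB4 (9.09), SERPINB8 (6.26), SERPINB3 (5.80) and SERPINB9 (0.0960), with SERPINB2, SERPINB7 and SERPINB13 at 0. At these lengths SERPINB8 and SERPINB3 differed by less than the sum of their SDs, and the other neighbours with counts differed by more. The SDs do not cover the choice of length. In KD the order was SERPINB6 (73.4 CPM per kb), SERPINB1 (21.0), SERPINB8 (8.58), SERPINB5 (0.370), SERPINB7 (0.256), SERPINB4 (0.136), SERPINB2 (0.10), SERPINB9 (0.0283) and SERPINB13 (0.0196), with SERPINB3 at 0. From SERPINB5 downwards, each differed from the next in this order by less than the sum of their SDs.

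The regions around the start sites showed what the genes share and where they part. Promoter sequence was taken from RefSeq (GRCh38.p14), which gave 15 start sites for the 10 genes, each with 250 bases before the start and 50 after it. The duplicates SERPINB3 and SERPINB4 are identical in 296 of these 300 bases. The 250 bases before each start are shown because both genes were near 0 in KD; capitals mark the 3 bases in which they differ. SERPINB3 lies at chr18:63661894-63662143 and SERPINB4 at chr18:63644257-63644506, both on the minus strand.
SERPINB3: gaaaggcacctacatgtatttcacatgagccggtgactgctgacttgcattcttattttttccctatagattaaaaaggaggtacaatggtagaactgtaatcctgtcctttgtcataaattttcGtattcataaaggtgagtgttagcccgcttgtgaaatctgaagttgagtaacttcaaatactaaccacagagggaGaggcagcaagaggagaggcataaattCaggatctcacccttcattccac
SERPINB4: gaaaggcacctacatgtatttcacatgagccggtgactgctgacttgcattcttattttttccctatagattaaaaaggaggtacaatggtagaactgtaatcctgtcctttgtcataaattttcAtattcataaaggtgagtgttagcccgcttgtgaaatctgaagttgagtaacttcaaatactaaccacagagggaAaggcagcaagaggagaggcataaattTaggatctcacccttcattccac

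The motif of AP-1, the dimer of FOS and JUN proteins, was searched as TGANTCA, which is its own reverse complement. It occurred at 6 of the 15 starts, in SERPINB2, SERPINB5, SERPINB7 (at 2 of its 3 starts), SERPINB8 and SERPINB13, all on chromosome 18, against 7.71% of 35116 promoters of the same length. It was found in none of the 3 chromosome 6 genes and in neither SERPINB3 nor SERPINB4. The genes with a match were therefore among those lower in KD (SERPINB5), those higher (SERPINB8) and those with a handful of counts in KD only (SERPINB2 and SERPINB7). The 250 bases before the start are shown for SERPINB5 (chr18:63476708-63476957), SERPINB8 (chr18:63969831-63970080) and SERPINB2 (chr18:63887455-63887704), all on the plus strand, as genes with the match and different values; capitals mark the matches, which begin 146 bases before the start in SERPINB5, 185 and 28 in SERPINB8 and 102 in SERPINB2.
SERPINB5: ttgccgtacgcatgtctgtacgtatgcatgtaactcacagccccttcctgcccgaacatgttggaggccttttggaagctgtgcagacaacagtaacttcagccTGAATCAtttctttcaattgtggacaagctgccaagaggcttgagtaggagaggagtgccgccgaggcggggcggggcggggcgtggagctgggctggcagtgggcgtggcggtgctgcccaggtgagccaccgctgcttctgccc
SERPINB8: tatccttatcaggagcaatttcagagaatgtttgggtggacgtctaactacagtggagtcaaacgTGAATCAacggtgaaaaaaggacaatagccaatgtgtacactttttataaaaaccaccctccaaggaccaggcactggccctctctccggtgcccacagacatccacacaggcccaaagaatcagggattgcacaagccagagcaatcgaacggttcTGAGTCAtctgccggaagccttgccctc
SERPINB2: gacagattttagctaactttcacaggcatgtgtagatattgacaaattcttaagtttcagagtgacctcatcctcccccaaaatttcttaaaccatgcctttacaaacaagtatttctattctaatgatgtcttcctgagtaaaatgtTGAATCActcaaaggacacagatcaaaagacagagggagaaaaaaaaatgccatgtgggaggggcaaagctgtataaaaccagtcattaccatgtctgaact

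Other motifs were searched on both strands. The TATA box, as TATAAA, occurred at 6 of 15 starts against 11.5% of all promoters, and at 4 of 15 when the 250 bases before the start were searched alone. The STAT motif, as TTCNNNGAA, occurred at 3 of 15 against 7.66%, in SERPINB1, SERPINB7 and SERPINB8. The NF-kB motif occurred at 1 start, in SERPINB7, against 5.91%, and the half-site of the p53 family at none, against 6.63%. No match of another motif overlapped an AP-1 match. CpG content varied as well. The promoters of SERPINB1 and SERPINB9 held 27 and 35 CG pairs, and the 4 of SERPINB6 held 32, 43, 45 and 7, whereas SERPINB2, SERPINB3, SERPINB4 and SERPINB13 held 1 to 4, those of SERPINB7 held 0 to 2, SERPINB8 held 9 and SERPINB5 held 16, against a median of 14 over all promoters (quartiles 4 and 28). A match is a description of letters and says nothing of binding in these cells.

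The genes beside the clusters were tested, as the choice of members did not use them. Around the chromosome 6 cluster, 8 of 19 tested protein-coding neighbours were called higher and 5 lower, with a median log2 change of 0.12. Around the chromosome 18 cluster, 2 of 20 were called higher and 8 lower, with a median of -0.10, against a median of 0.01 over all genes. Over both, 59.0% of neighbours were called, against 57.7% of all genes. The 10 higher and 13 lower became 12 and 9 with library size as the only scaling, and 8 and 7 with DESeq2. A near-complete loss like that of SERPINB5, SERPINB4 and SERPINB3 was not seen among them: the lowest log2 change among the 39 was -2.33.

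Among tested neighbours of the chromosome 6 cluster, the nearest on one side, WRNIP1, rose slightly (log2 fold change 0.22, edgeR adjusted p = 0.00402). NQO2, the nearest on the other side, fell slightly (-0.27, edgeR adjusted p = 0.0173). Both calls were lost without WT library 1, at adjusted p = 0.0691 for WRNIP1 and 0.272 for NQO2. Among the neighbours further off, the forkhead genes FOXC1 and FOXQ1 rose from 9.75 to 24.4 CPM and from 18.2 to 36.3 CPM (log2 fold changes 1.31 and 0.99), and PXDC1 rose by 0.80 while BPHL fell by 0.86 on the log2 scale. Of the tested neighbours of the chromosome 18 cluster, VPS4B, which acts in endosomal sorting, was nearest on one side. It was at 84.6 ± 1.34 CPM in WT and 79.5 ± 4.43 in KD (edgeR adjusted p = 0.297). DSEL, the nearest tested on the other side, was at 72.7 ± 3.56 and 80.4 ± 0.712 CPM (edgeR adjusted p = 0.0879). Neither was called. Genes that did not pass the filter were left out and may lie between these genes and the cluster. Further off, PMAIP1, a BH3-only apoptosis gene, fell from 29.8 to 5.94 CPM (log2 fold change -2.33, edgeR adjusted p = 1.25e-27), RNF152 fell by 1.5, CCDC102B by 1.31 and CBLN2 by 1.10 on the log2 scale.

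**Figure D3:**
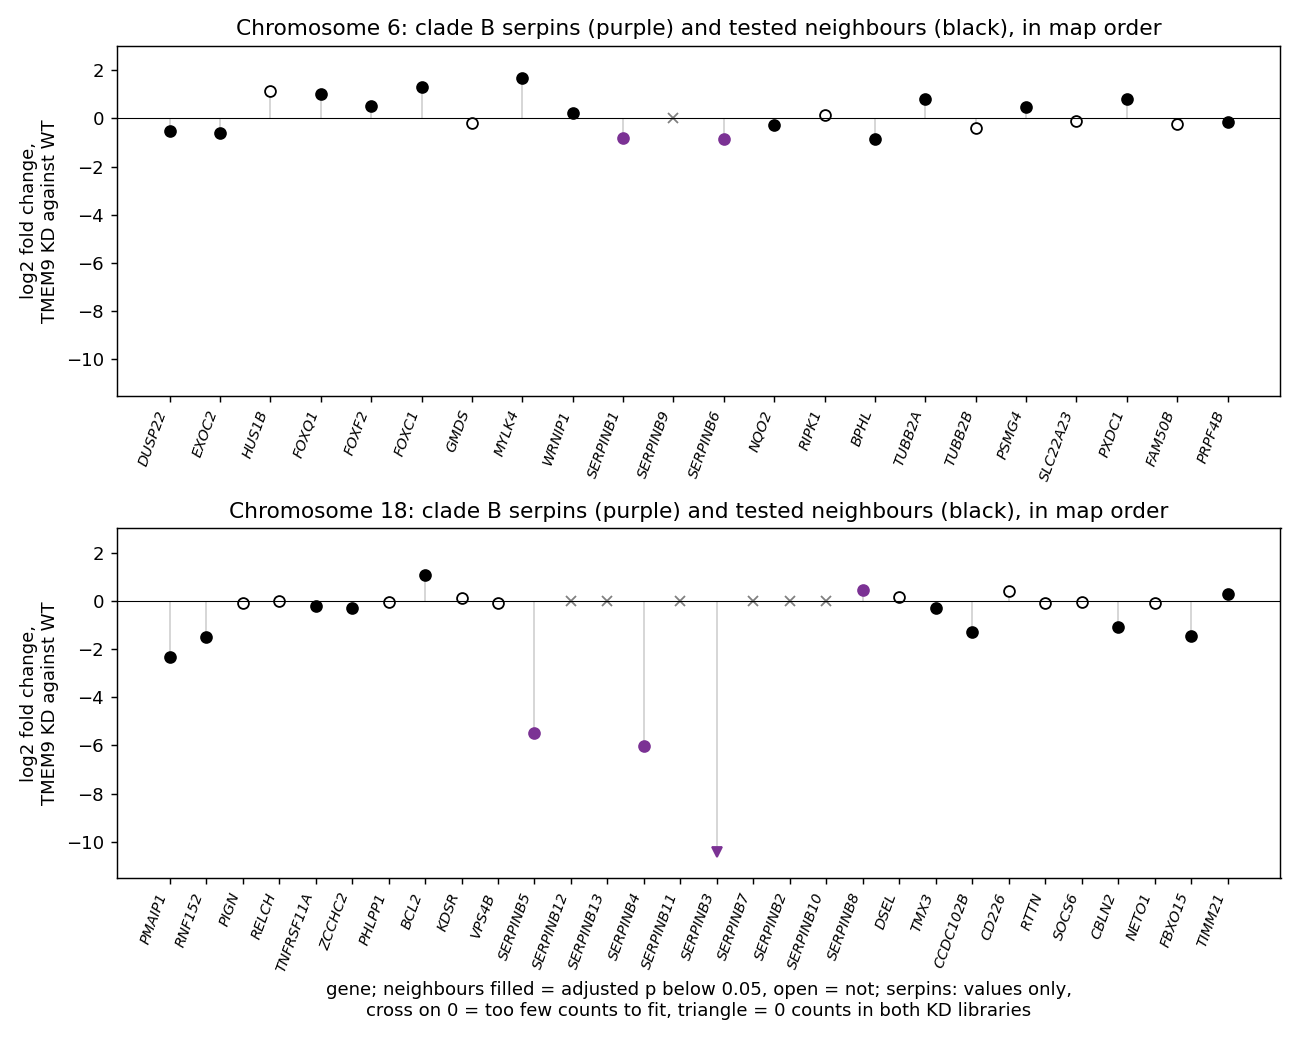
Log2 fold change (KD against WT) of the clade B serpins (purple) and of their tested protein-coding neighbours (black) in map order, evenly spaced, not to distance. Neighbours are filled where the adjusted p was below 0.05 and open where not. The serpins show values only, with no test, and crosses mark those with too few counts to fit. The triangle marks SERPINB3, whose fitted value depends on its 0 counts in KD and is no measured fold. The nearest tested neighbours of the chromosome 18 cluster, VPS4B and DSEL, lie near 0, and genes that were not tested are left out.

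Proteases that these serpins act on, with the urokinase receptor, were a list of 20 genes, of which 10 were tested, 1 was called higher and 9 lower (57.7% of all genes were called, 29.0% as lower), with a median log2 fold change of -0.74 against 0.01 over all genes. CTSV and PRTN3 passed the filter through the WT libraries only, which leaves the count and the median partly set by the filter. Urokinase (PLAU), the target of SERPINB2, rose from 352 ± 4.11 to 427 ± 0.404 CPM (log2 fold change 0.28, edgeR adjusted p = 7.79e-06), while its receptor PLAUR fell from 65.6 ± 3.93 to 44.0 ± 1.74 CPM (-0.58, adjusted p = 4.21e-09) and tissue plasminogen activator (PLAT) fell by 0.51. The lysosomal cathepsin L (CTSL), a target of SERPINB3 and SERPINB13, fell from 122 to 89.4 CPM (-0.45). Cathepsin S (CTSS) fell from 16.5 to 5.01 CPM (-1.72), and the low-level cathepsin V (CTSV) from 1.82 to 0.349 CPM (-2.35). FURIN, the target of SERPINB8, fell from 154 ± 0.944 to 129 ± 10.4 CPM (-0.25, adjusted p = 6.46e-04), whereas SERPINB8 was higher in KD than in WT. Caspase-1 (CASP1) fell from 96.9 to 27.8 CPM (-1.80).

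Serpins of other clades did not share one direction. Of 22 listed genes, 9 were tested, 1 was called higher and 6 lower, or 77.8% called against 57.7% of all genes, with a median log2 fold change of -0.57 against 0.01. Of the 6, SERPINA10 passed the filter through WT only. SERPINE2, a secreted inhibitor of thrombin and urokinase, fell from 270 ± 2.08 to 182 ± 2.07 CPM (-0.57, edgeR adjusted p = 2.93e-14), SERPINA1 fell from 10.8 to 2.51 CPM (-2.10), and the collagen chaperone SERPINH1 fell from 471 to 412 CPM (-0.19, adjusted p = 0.00177). That last call was lost without WT library 1 (adjusted p = 0.0864), without WT library 2 (0.0877) and with library size as the only scaling (0.0562).

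Of 11 tested other protease inhibitors of epithelial cells, 0 were called higher and 8 lower, or 72.7% called against 57.7% of all genes. The median log2 fold change was -1.0 against 0.01 over all genes. Of the 8, PI3, SLPI and SPINT1 passed the filter through WT only, which leaves the count and the median partly set by the filter. The list was also chosen with earlier results of these data known. At an unadjusted p below 0.05 edgeR also gave 0 higher. DESeq2, at an adjusted p below 0.05, gave 0 higher and 7 lower. TIMP3, a matrix-bound inhibitor of metalloproteinases, fell from 538 ± 13.0 to 17.1 ± 0.480 CPM (-4.98, adjusted p = 1.08e-75). The elastase inhibitors of mucosal and skin surfaces, PI3 (elafin) and SLPI, fell from 19.6 to 0.701 CPM (-4.78) and from 11.5 to 0.556 CPM (-4.34). CSTA, a cystatin of the epidermis that blocks cysteine cathepsins as SERPINB3 does, fell from 9.42 to 1.90 CPM (-2.31).

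Of 25 transcription factors tied to epithelial serpin genes, 21 were tested, 4 were called higher and 12 lower, or 76.2% called against 57.7% of all genes. The median log2 fold change of -0.24 lay within the quartiles of all genes, -0.39 and 0.37, and TP73 and ELF3 were among the genes that passed the filter through WT only. TP63, the p53 family member that maintains basal epithelium and is known to act on SERPINB5, fell from 156 ± 0.820 to 32.5 ± 1.43 CPM (-2.26, edgeR adjusted p = 4.26e-46). TP73 fell from 200 and 271 counts in WT to 3 and 0 in KD, and EHF, an ETS factor of epithelia, fell from 64.2 to 3.46 CPM (-4.20). The 4 AP-1 subunits in the list did not move together: FOSL1 rose from 61.0 to 219 CPM (1.84) and JUN from 80.6 to 172 CPM (1.09), while JUNB fell from 91.2 to 42.6 CPM (-1.10) and FOS from 4.0 to 1.54 CPM (-1.37). FOS, JUN and JUNB were named after their values were seen. Whether any of these factors acted on the serpin genes was not tested.

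Squamous and keratinocyte genes, among which SERPINB3, SERPINB4 and SERPINB5 are often counted, were mostly too low to test or lower in KD. Of 30 listed genes 13 were tested, 2 were called higher and 9 lower, or 84.6% called against 57.7% of all genes, with a median log2 fold change of -3.69, or -3.36 with KRT5 and KRT14 at their bounds. Of the 9, KRT5, KRT6A, KRT14, KRT16 and DSG3 passed the filter through WT only and so had to be lower in KD, which leaves the count and the median partly set by the filter. The basal keratin KRT14 had 185 and 307 counts in WT and none in KD, at least 168-fold lower. The calprotectin genes S100A9 and S100A8 fell from 57.8 to 2.77 CPM (-4.37) and from 32.3 to 1.59 CPM (-4.33), and S100A2 fell from 237 to 70.7 CPM (-1.74). The 2 called higher were FABP5, from 27.3 to 45.4 CPM (0.74), and SFN, from 91.4 to 103.6 CPM (0.18). Among the untested genes, SPRR2D had no count in WT and 6 and 9 counts in KD, and 8 of the 30 had no count in any library.

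**Figure D4:**
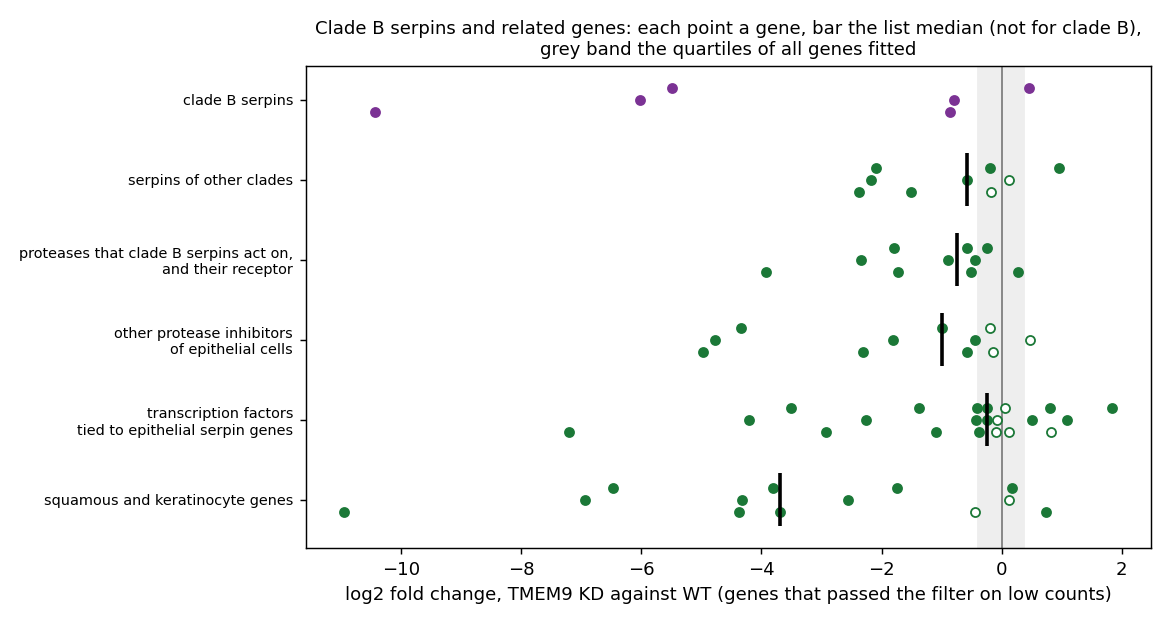
Log2 fold change (KD against WT) of the clade B serpins that passed the filter on low counts (purple, values only, with no test) and of the tested genes of 5 related lists (green, filled where the adjusted p was below 0.05). Black bars are list medians (-0.57, -0.74, -1.0, -0.24 and -3.69 from the second row down). These medians are partly set by the filter, as each list holds genes that passed it through WT only. The grey band spans the quartiles of all genes fitted, from -0.39 to 0.37. The leftmost clade B point is the fitted value of SERPINB3, and that of the squamous genes is KRT14, both with 0 counts in KD.

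Genes with the profile most like that of 1 member of each cluster, the one with the highest mean CPM over all libraries, were sought over the 4 libraries, by the distance between log2 CPM values centred on each gene's mean, among 10694 genes of at least 5 CPM. For SERPINB6 they were CREG1, PLPP3 and TM2D1 (distances of 0.016, 0.017 and 0.026), and for SERPINB8 they were SOWAHC, TAF7 and UBE2E2 (0.023, 0.026 and 0.027). With 4 libraries in 2 groups, this likeness is mainly that of the 2 group levels.

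The 18 markers of the labelled line summed to 1189 and 1214 CPM in WT and 1295 and 1370 in KD, most of it from KRT7, KRT8 and KRT18. Of the 12 tested, 5 were called higher and 5 lower, or 83.3% called against 57.7% of all genes. Log2 fold changes ran from -5.52 for MLPH, which passed the filter through WT only, to 3.08 for DHRS2. Markers of other cell types moved with the groups as well. The summed CPM of 20 leukocyte markers was 16.25 and 16.47 in WT and 8.246 and 7.734 in KD. CD14 was the most abundant in WT (7.28 CPM, 1.20 in KD) and PTPRC in KD (4.20 CPM, 2.53 in WT). CD3E, CD8A, MS4A1, LYZ and FCGR3A were at 0 in all libraries. Of the 4 tested, 1 was called higher and 3 lower, against 57.7% of all genes called. CD74, among the 3, passed the filter through WT only. The sum of 13 fibroblast markers was 3180 and 3221 in WT and 2293 and 2523 in KD. None was at 0 in all libraries, but some lay near the floor. COL1A2 had 9 and 16 counts in WT and 2 and 1 in KD, and LUM had 0 and 2 in WT and 28 and 21 in KD. POSTN was at 1.09 CPM in WT and 0.888 in KD, and DCN at 1.82 and 3.08. Others were well counted, such as COL6A2 (488.1 CPM in WT, 166.9 in KD) and COL6A3 (439.5 and 555.7). COL3A1, the most abundant of the fibroblast markers in WT, fell from 957 to 31.1 CPM. COL1A1, the most abundant in KD, rose from 824 to 1387 CPM. Of the 12 tested, 5 were called higher and 6 lower, or 91.7% called against 57.7% of all genes. LUM, among the 5, passed the filter through KD only. The series text calls the profiles retinal, so 16 photoreceptor and retinal genes were summed too, at 16.79 and 16.52 CPM in WT and 9.101 and 9.338 in KD, with OPN1SW the most abundant and RCVRN, GNAT1 and OPN1LW at 0 throughout. The part of other cells in the serpin values was not tested.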

How the data were processed

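RNA-seq was made from total RNA of MDA-MB-453 cells, 2 WT and 2 TMEM9 KD libraries, grouped by their labels. The values are raw whole-number counts of each gene, as the authors deposited them. Tools listed in the submitters' processing notes are CASAVA and Bowtie 0.12.2, and the genome builds listed are mm8 and hg19, with no roles. How genes were counted, on which annotation and with what strand setting, the sources used here do not give, so reads of overlapping or antisense genes may be mixed.

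From these counts, edgeR 4.0.16 in R 4.3.3 was fitted over all genes by the quasi-likelihood test with TMM factors. The settings were filterByExpr with a minimum count of 10 and Benjamini-Hochberg adjustment over all tested genes, at a threshold of 0.05. The fit was also run on simulated counts in which far fewer genes differed and all shared a single dispersion. That run does not show how scaling or error control hold with so many genes changed. CPM used the TMM-scaled library sizes. Symbols were matched by Ensembl identifier for 45038 genes from a gene names table and for 304 from GENCODE 29, which also gave transcript lengths and map order; 2820 had none. Standard deviations are over 2 libraries. Alternatives were DESeq2 1.42.0, other scaling, no filter, a block for the replicate number, and each library left out in turn.

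The members and lists were chosen with earlier results of these data known. Genes named are TMEM9, all clade B genes, the nearest tested neighbours of the clusters and the 3 most alike genes. Up to 4 called genes per list with the largest change and at least 5 CPM are named too. PLAU, PLAUR, CTSL, CTSV, FURIN and GZMB are named as partner genes, and for marker lists those at 0 and the most abundant. Further genes are named, after their values were seen, to show limits of the lists. Some genes of the lists are not reported here.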

Additional observations from a re-analysis of the deposited data

How the results depend on the processing

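The clade B serpins are a description, since this contrast was known when they were chosen. Their count lower in KD was 5 in each alternative, from which nothing is read, and their count higher was 1, or 2 with SERPINB7 added: with no filter (2), with DESeq2 (2) and when either WT library was left out (1 to 2 over the libraries left out); without the filter it had a fitted log2 difference of 6.09 against 0 counts in WT. Genes followed singly across the alternatives were TMEM9, the tested members and partner genes, and the nearest neighbours of the clusters. The genes of largest change from the related lists and the neighbours were followed too. None of their fold changes turned in sign. Marker genes, the most alike genes and genes named after their values were seen were not followed. Over all genes, 5030 were called higher and 3730 lower with library size only, and 2963 and 3371 with DESeq2. With the replicate block, 4171 genes were called higher and 4266 lower (4283 and 4335 without it), and the clade B counts were 1 higher and 5 lower. The block changed no call of a gene followed singly, and same-numbered libraries did not deviate together (correlation -0.0024). Of the squamous genes, 1 to 2 were called higher when single libraries were left out, and 1 without WT library 1, WT library 2 or KD library 2. Of the cluster neighbours, 10 were called higher and 13 lower, 12 and 9 with library size only, 8 and 7 with DESeq2, and 7 to 11 higher and 8 to 13 lower when single libraries were left out (7 and 8 without WT library 1). NQO2 was also lost with DESeq2 (adjusted p = 0.126), with library size only (0.0858) and without KD library 2 (0.0582), WRNIP1 without WT library 2 (0.155), and DSEL was called with library size only (0.00878). Depth limits SERPINB2, SERPINB7, SERPINB9 and SERPINB13, which had at most 10 counts in any library, and the KD levels of SERPINB3 and SERPINB4. The cause of these changes was not tested.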
